A study of Mus musculus with 22 samples.

Results

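MiR-122 is the most abundant microRNA of the hepatocyte and lowers the level of many messenger RNAs that carry its sites, and the 7 genes described here, Aldoa, Gys1, P4ha1, Slc7a1, Cd320, Ndrg3 and Tmed3, are published direct targets of it. They were taken by name, as published targets, and are 7 of the 55291 genes in each table. The livers came from 22 male WT C57BL/6 pups, all injected on postnatal day 1 and collected 36 hours later, and RNA was selected with oligo(dT). In 4 of them the injection was rAAV9-ST3GAL5.v2, an AAV9 vector labelled rAAV9.Syn1.ST3GAL5.miR122BS, in which the human Syn1 promoter, a promoter of neurons, drives human ST3GAL5 and the transcript carries miR-122 binding sites that silence it in hepatocytes. The other 5 groups were PBS (4 pups), AAV9.empty, a capsid without a genome (4), AAV9.EGFP, in which the ubiquitous CB promoter drives EGFP (4), rAAV9-ST3GAL5.v1, in which CB drives human ST3GAL5 (3), and rAAV9-ST3GAL5.v1-E332K, a vector labelled like the former with E332K added (3). None of those 5 carries miR-122 sites by its label. Litters are not given in the labels, and p-values reflect only how these livers varied, part of which may be technical.

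A microRNA binds its targets through its seed, bases 2 to 8 from its 5′ end, and a messenger RNA that pairs with the seed in its 3′ UTR is repressed. A transcript made in large amounts with many such sites can compete for a microRNA, in which case the microRNA's own targets would be expected to rise. In liver, miR-122 is known for holding down genes of lipid, amino acid and sugar metabolism, among them enzyme forms typical of muscle. Comparing rAAV9-ST3GAL5.v2 with the other groups asks whether the levels of miR-122's targets differed where a vector with its sites was given. The authors report strongly lowered expression of its transgene in liver, and the amount of that transcript is not among the levels given here. Its promoter also differs from that of the CB vectors, so competition for miR-122 was not tested. The miRNA itself was not measured: the row of the Mir122 precursor had 0 counts in all 22 libraries.

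All 7 genes carried a match to the miR-122 seed in an annotated 3′ UTR of GENCODE vM21 (GRCm38, the build called mm10 in the submitters' processing notes). The 3 kinds of site searched on the transcript strand were the 8mer ACACTCCA, the 7mer-m8 ACACTCC (not followed by A) and the 7mer-A1 CACTCCA (not preceded by A), and overlapping matches count once, as the longest. In the longest 3′ UTR, the strongest site was an 8mer in Aldoa, Slc7a1, P4ha1 and Gys1, a 7mer-m8 in Cd320 and a 7mer-A1 in Tmed3. Ndrg3 held a 7mer-m8 only in a transcript with a shorter 3′ UTR. Among the 20690 genes with an annotated 3′ UTR, 3.33% had an 8mer as the strongest site in the longest 3′ UTR, 5.28% a 7mer-m8 and 6.26% a 7mer-A1. A match is a description of the letters and not evidence of binding. The windows below are shown because they are the sequences through which miR-122 would act on the strongest site of each gene, with 30 bases of the transcript 5′ to 3′ and the site in capitals.
Aldoa, base 29 of the 3′ UTR, chr7:126795375-126795404, minus strand: aggctgctccatcaACACTCCAggcccctg
Gys1, base 144, chr7:45455497-45455526, plus strand: aacctctgtttcagACACTCCAgcccttga
P4ha1, base 85, chr10:59371145-59371174, plus strand: tttacagctgactaACACTCCAtgattaat
P4ha1, base 1780, chr10:59372840-59372869, plus strand: aaacacgtgaggaaACACTCCAtctctggg
Slc7a1, base 331, chr5:148332094-148332123, minus strand: catcgcccatgtgcACACTCCAgatggcta
Slc7a1, base 4059, chr5:148328366-148328395, minus strand: aagtgaaacgtgctACACTCCAatgtggtt
Cd320, base 171, chr17:33848585-33848614, plus strand: actggggtcctcagACACTCCcgctgtatg
Cd320, base 274, chr17:33848688-33848717, plus strand: ctactgtggtttagACACTCCtgctgctca
Ndrg3, base 1262 of the shorter 3′ UTR, chr2:156927423-156927452, minus strand: aaaaggtttttcacACACTCCttgctttct
Tmed3, base 124, chr9:89699604-89699633, minus strand: atatctgatctttgCACTCCAacaacggaa

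**Figure D1:**
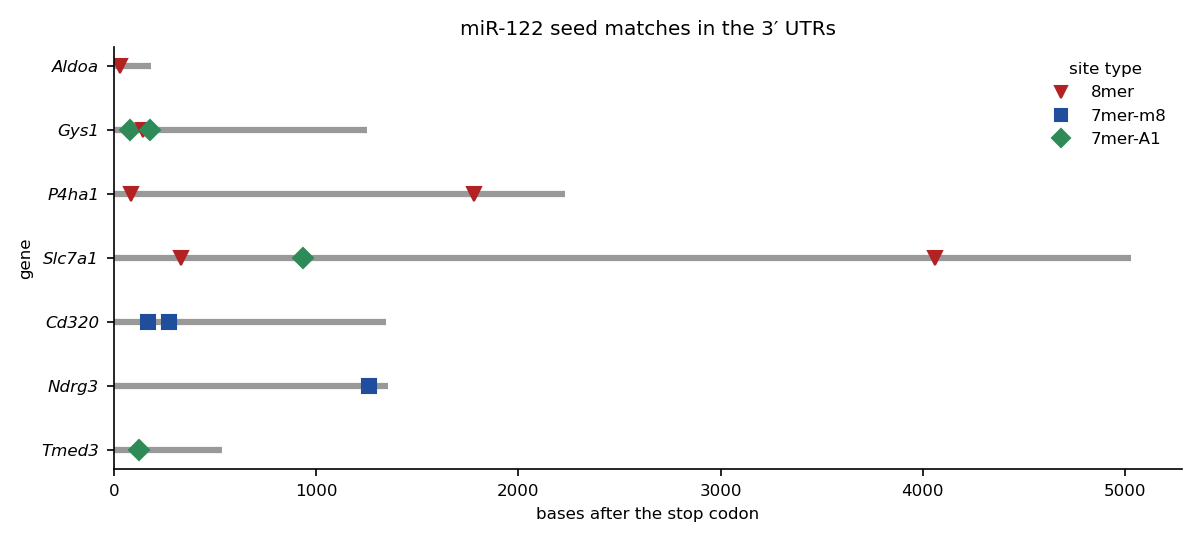
Positions of miR-122 seed matches along the 3′ UTR of each gene, in bases after the stop codon, with the grey bar as long as the 3′ UTR and a marker for each 8mer, 7mer-m8 or 7mer-A1 (for Ndrg3 the shorter 3′ UTR that holds its site). The first site lay within the first 331 bases in all genes but Ndrg3. Slc7a1 had further sites at bases 933 and 4059 and P4ha1 at base 1780.

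The 8mers of Aldoa and Gys1 lay close to the stop codon, and Gys1 had further 7mer-A1 sites at bases 82 and 181 and Slc7a1 one at base 933. The 3′ UTRs ranged from 185 bases in Aldoa to 5030 bases in Slc7a1.

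Libraries held 17164502 to 24305788 expected counts (median 19725398). Levels are given as CPM, read counts scaled to a common library size with TMM over the 22 libraries, and groups were compared by edgeR's quasi-likelihood test with Benjamini-Hochberg adjustment over all genes tested, a gene being called at an adjusted p of at most 0.05. The livers had the markers of their label, with 10 of 10 hepatocyte markers detected in every group. In the 4 rAAV9-ST3GAL5.v2 livers, replicate 2 had the lowest score of erythroid genes of all 22 libraries (mean log2(CPM + 1) of 8.61), and Gm47283, a gene at 0 in some libraries and not in others, was at 0 in replicates 3 and 4 and in all 3 rAAV9-ST3GAL5.v1 livers.

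None of the 7 targets was higher with rAAV9-ST3GAL5.v2 than in any other group by the test. Against PBS, 0 of 7 were called, with 1 at an unadjusted p under 0.05 and 1 called by DESeq2, where 2.90% of all genes tested were called, 1.80% higher and 1.10% lower. Against AAV9.empty, 0 of 7 were called, with 2 at an unadjusted p under 0.05 and 1 called by DESeq2 and 1 by limma, where 5.38% of all genes were called, 2.88% higher and 2.50% lower. Against AAV9.EGFP, 0 of 7 were called, with 1 at an unadjusted p under 0.05 and 0 by DESeq2 or limma, where 0.330% of all genes were called, 0.110% higher and 0.220% lower. Shares of all genes are edgeR's, at the adjusted p. In these comparisons DESeq2 called 888 of 13425, 1330 of 13125 and 395 of 13941 genes. Limma on log2(TPM + 1) with a filter called 350 of 12853, 982 of 12893 and 45 of 12886. The share of all genes at an unadjusted p under 0.05 was not counted, here or below. Against rAAV9-ST3GAL5.v1, Aldoa and P4ha1 were lower, where 12.1% of all genes were called lower and 11.3% higher, 23.4% in all. Against rAAV9-ST3GAL5.v1-E332K, Tmed3 was lower, where 1.86% of all genes were called and 1.65% were called lower. The median log2 fold change of the 7 genes was -0.04 against PBS, 0.06 against AAV9.empty and -0.00 against AAV9.EGFP, beside medians over all genes of -0.00, 0.01 and -0.00. It was -0.29 against rAAV9-ST3GAL5.v1 and 0.05 against rAAV9-ST3GAL5.v1-E332K, beside -0.01 and 0.00.

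**Figure D2:**
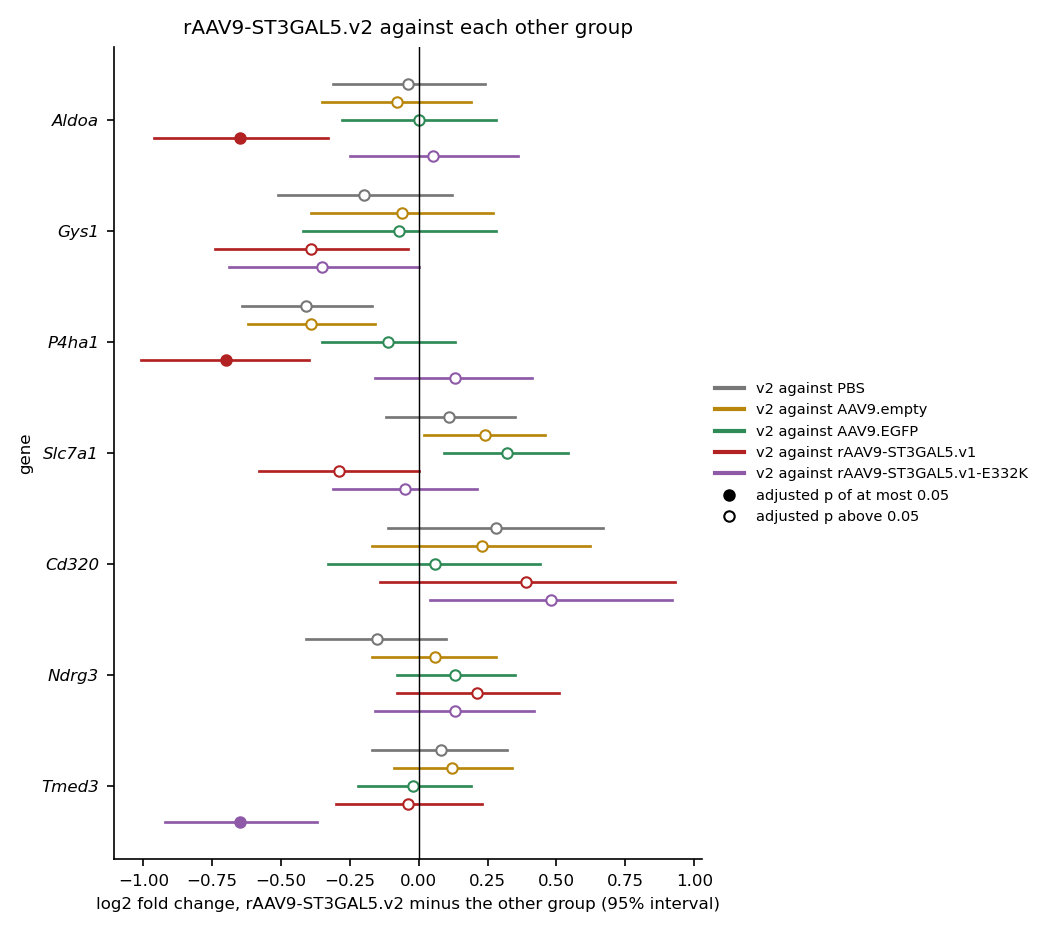
Log2 fold changes of the 7 genes in rAAV9-ST3GAL5.v2 against each of the other 5 groups, as points with 95% intervals from edgeR, filled where the adjusted p was at most 0.05. The 3 filled points, all below 0, are Aldoa and P4ha1 against rAAV9-ST3GAL5.v1 and Tmed3 against rAAV9-ST3GAL5.v1-E332K.

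The comparisons share the rAAV9-ST3GAL5.v2 livers, so they are not independent of each other. In one fit of all 22 libraries, rAAV9-ST3GAL5.v2 was set against the mean of the other 5 groups. P4ha1 was lower (log2 fold change -0.29, 95% interval -0.46 to -0.12, adjusted p = 0.0459) and the other 6 were not called, where 4.70% of all genes were called, 2.59% higher and 2.11% lower. The call for P4ha1 was lost in 14 of the 22 fits that left out 1 library (adjusted p from 0.039 to 0.202), with the largest p without rAAV9-ST3GAL5.v2 replicate 2, where the log2 fold change was -0.22. Cd320 had the largest positive value, 0.29 (95% interval 0.01 to 0.57, adjusted p = 0.222).

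Aldoa encodes aldolase A, the glycolytic aldolase of muscle and fetal liver, and is among the most used readouts of miR-122 activity in mouse liver. In the rAAV9-ST3GAL5.v2 livers it was at 189, 168, 216 and 145 CPM in replicates 1 to 4. It was at 196, 214, 167 and 160.2 CPM with PBS, and at 219, 201, 169 and 171 CPM with AAV9.empty. The AAV9.EGFP livers had 185, 155, 212 and 162 CPM, and those of rAAV9-ST3GAL5.v1-E332K had 174, 156 and 184 CPM. These 5 groups overlapped throughout. Only the rAAV9-ST3GAL5.v1 livers stood apart, at 249.7, 299.7 and 282 CPM, each above every other library. How many of all genes had groups apart in this way was not counted, here or below. For rAAV9-ST3GAL5.v2 the log2 fold change was -0.08 against AAV9.empty (95% interval -0.35 to 0.19, adjusted p from 0.412 to 0.991 over the libraries left out) and -0.00 against AAV9.EGFP (95% interval -0.28 to 0.28). The upper bounds correspond to at most a 1.14-fold higher level than with AAV9.empty and at most a 1.21-fold higher level than with AAV9.EGFP. Against rAAV9-ST3GAL5.v1, Aldoa was lower by a log2 fold change of -0.65 (95% interval -0.96 to -0.33, adjusted p = 0.0115). That call held under 9 of 11 other settings and was lost under 2, Gm47283 as a covariate (adjusted p = 0.0546) and a replicate block (adjusted p = 0.0616). It held in each of the 7 fits without 1 library (adjusted p from 0.00954 to 0.0315). The counts of other settings given for each gene leave out a 2-fold minimum, under which no call of a member held. The annotation gives the symbol Aldoa to 2 neighbouring gene IDs on chromosome 7, which the single row of that symbol does not tell apart.

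**Figure D3:**
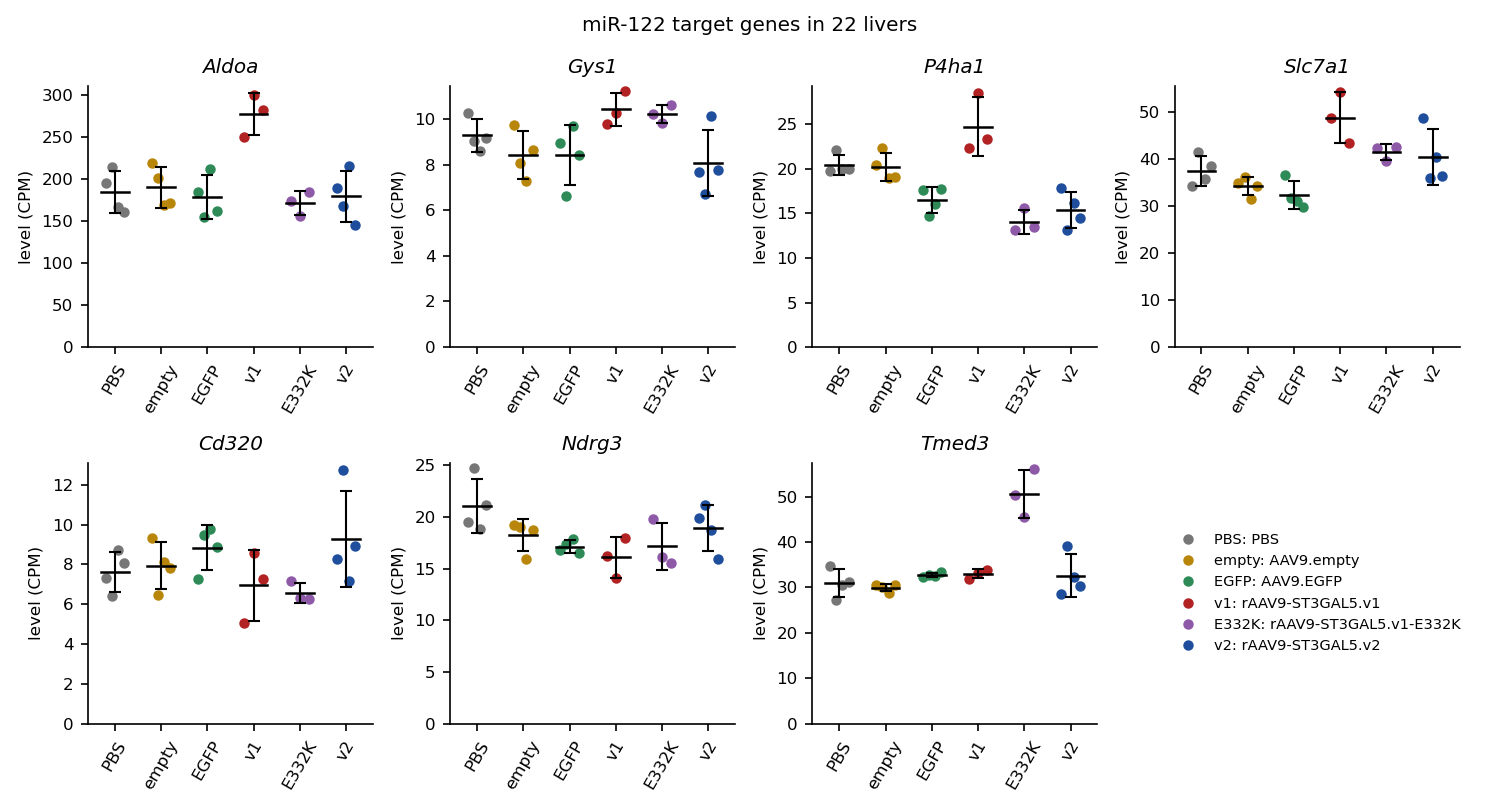
CPM of the 7 genes in each of the 22 livers (points), with the group mean and SD (bars), by group. Aldoa and Slc7a1 were highest with rAAV9-ST3GAL5.v1, Tmed3 with rAAV9-ST3GAL5.v1-E332K at 45.5 to 56.1 CPM, and P4ha1 was lowest with rAAV9-ST3GAL5.v1-E332K, rAAV9-ST3GAL5.v2 and AAV9.EGFP.

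Gys1, the glycogen synthase of muscle and most other tissues, is a target of the same fetal and muscle kind. It was at 7.66, 6.70, 10.1 and 7.77 CPM with rAAV9-ST3GAL5.v2, against 9.73, 8.05, 7.27 and 8.635 CPM with AAV9.empty. The PBS livers had 10.3, 9.05, 8.605 and 9.16 CPM and the AAV9.EGFP livers 8.95, 6.61, 9.70 and 8.44 CPM. All 4 groups overlapped. It was at 9.78, 10.3 and 11.2 CPM with rAAV9-ST3GAL5.v1 and at 10.2, 9.83 and 10.6 CPM with rAAV9-ST3GAL5.v1-E332K, both overlapping with rAAV9-ST3GAL5.v2 through its replicate 3. The log2 fold change of rAAV9-ST3GAL5.v2 was -0.06 against AAV9.empty (95% interval -0.39 to 0.27), -0.39 against rAAV9-ST3GAL5.v1 (adjusted p = 0.101) and -0.35 against rAAV9-ST3GAL5.v1-E332K (adjusted p = 0.354). Against rAAV9-ST3GAL5.v1 it passed with limma on log2(TPM + 1) with a filter (adjusted p = 0.0477) and without rAAV9-ST3GAL5.v2 replicate 3 (adjusted p = 0.0412). In that limma setting Gys1 had -0.47, and the median over all genes was itself below 0, at -0.173.

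P4ha1, the catalytic subunit of the prolyl hydroxylase that modifies collagen, had its lowest group means in 3 groups given a vector genome. Its highest mean was in the other, rAAV9-ST3GAL5.v1. Of these vectors, edgeR called only the E332K vector against AAV9.empty. In the rAAV9-ST3GAL5.v2 livers P4ha1 was at 17.8, 13.2, 16.2 and 14.5 CPM. It was at 19.7, 22.1, 20.0 and 20.0 CPM with PBS and at 20.4, 22.4, 19.0 and 19.0 CPM with AAV9.empty. Every rAAV9-ST3GAL5.v2 liver was thus below every PBS and AAV9.empty liver. The same held for AAV9.EGFP, at 17.6, 14.7, 16.1 and 17.7 CPM, and for rAAV9-ST3GAL5.v1-E332K, at 13.1, 15.6 and 13.4 CPM. The share of all genes with groups apart in this way was not counted, so no result about P4ha1 is drawn from the separation. The rAAV9-ST3GAL5.v1 livers were at the other end, at 22.3, 28.5 and 23.4 CPM. For rAAV9-ST3GAL5.v2 the log2 fold change was -0.41 against PBS (95% interval -0.64 to -0.17, adjusted p = 0.0651) and -0.39 against AAV9.empty (95% interval -0.62 to -0.16, adjusted p = 0.0549), neither past the threshold. Both passed with DESeq2 (adjusted p = 0.0266 and 0.0235) and with all 6 groups in one fit (adjusted p = 0.0227 and 0.029), and over the alternatives to the main fit 2 of 11 passed against PBS and 5 of 11 against AAV9.empty. Against AAV9.EGFP it was -0.11 (95% interval -0.35 to 0.13). AAV9.EGFP itself had -0.28 against AAV9.empty (95% interval -0.49 to -0.08, adjusted p = 0.237). P4ha1 was lower with the E332K vector than with AAV9.empty (-0.53, 95% interval -0.76 to -0.29, adjusted p = 0.00731), a comparison in which 15.0% of all genes were called, 7.93% higher and 7.09% lower. Against rAAV9-ST3GAL5.v1, P4ha1 was lower with rAAV9-ST3GAL5.v2 by -0.70 (95% interval -1.01 to -0.40, adjusted p = 0.00771), and that call held in each of the 7 fits without 1 library (adjusted p from 0.0102 to 0.023). It held under 10 of 11 other settings and was lost with the replicate block (adjusted p = 0.0732) and, outside these 11, at a 2-fold minimum.

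Slc7a1 encodes the cationic amino acid transporter CAT-1, which imports arginine and lysine, and its repression in liver is a classic action of miR-122. It was at 48.7, 36.0, 40.3 and 36.4 CPM with rAAV9-ST3GAL5.v2. It was at 34.1, 41.5, 35.6 and 38.4 CPM with PBS, at 34.9, 36.2, 31.5 and 34.3 CPM with AAV9.empty and at 36.5, 31.6, 31.0 and 29.7 CPM with AAV9.EGFP. The rAAV9-ST3GAL5.v2 livers overlapped with each of these groups. The log2 fold change was 0.24 against AAV9.empty (95% interval 0.02 to 0.46, adjusted p = 0.177), 0.32 against AAV9.EGFP (95% interval 0.09 to 0.54, adjusted p = 0.202) and 0.11 against PBS (95% interval -0.12 to 0.35), none past the threshold in any of the alternatives. Without rAAV9-ST3GAL5.v2 replicate 1, the liver at 48.7 CPM, the value against AAV9.empty was at its lowest, 0.14. The other ST3GAL5 vectors had 48.7, 54.2 and 43.25 CPM for rAAV9-ST3GAL5.v1 and 42.25, 39.5 and 42.5 CPM for rAAV9-ST3GAL5.v1-E332K. Their means were 48.7 and 41.4 CPM, beside 40.4 CPM for rAAV9-ST3GAL5.v2, and both groups overlapped with it. Against AAV9.empty, Slc7a1 rose with rAAV9-ST3GAL5.v1 (log2 fold change 0.51, 95% interval 0.30 to 0.72, adjusted p = 0.00379) and had 0.27 with the E332K vector (95% interval 0.09 to 0.46, adjusted p = 0.0511). The rAAV9-ST3GAL5.v2 livers did not differ from either by the test, with -0.29 (95% interval -0.58 to 0.00, adjusted p = 0.134) and -0.05 (95% interval -0.31 to 0.21).

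Cd320, the receptor that takes up vitamin B12 bound to transcobalamin, was a low gene with wide spread. It was at 8.24, 12.7, 7.18 and 8.92 CPM with rAAV9-ST3GAL5.v2, and replicate 2 had the highest value of all 22 libraries. It was at 7.31, 6.42, 8.74 and 8.04 CPM with PBS and at 9.31, 6.48, 8.14 and 7.81 CPM with AAV9.empty. The ranges over the remaining groups were 7.27 to 9.75 CPM with AAV9.EGFP, 5.03 to 8.57 CPM with rAAV9-ST3GAL5.v1 and 6.27 to 7.17 CPM with rAAV9-ST3GAL5.v1-E332K. All but the last overlapped with rAAV9-ST3GAL5.v2, and the last lay just below it. Its log2 fold changes in rAAV9-ST3GAL5.v2 were above 0 in all 5 comparisons, from 0.06 against AAV9.EGFP to 0.48 against the E332K vector (95% interval 0.04 to 0.92, adjusted p = 0.311), and none passed. On the scale of log2(TPM + 1) the sign against AAV9.empty, AAV9.EGFP and rAAV9-ST3GAL5.v1 was negative, at -0.0651, -0.2337 and -0.1564, so the direction for Cd320 depends on the unit. With a filter, the medians over all genes on that scale were also below 0, at -0.0978, -0.0681 and -0.173.

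Ndrg3, a member of the N-myc downstream-regulated family whose protein is stabilised by lactate, was at 19.9, 21.1, 18.7 and 15.9 CPM with rAAV9-ST3GAL5.v2. It was at 19.5, 24.7, 18.9 and 21.2 CPM with PBS and at 19.2, 19.0, 15.95 and 18.7 CPM with AAV9.empty. The other 3 groups ranged from 14.05 to 19.8 CPM. No comparison called Ndrg3, and its log2 fold changes in rAAV9-ST3GAL5.v2 ran from -0.15 against PBS to 0.21 against rAAV9-ST3GAL5.v1 (95% interval -0.08 to 0.51).

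Tmed3, a p24 family protein that carries cargo between the endoplasmic reticulum and the Golgi, was at 28.5, 39.2, 32.3 and 30.3 CPM with rAAV9-ST3GAL5.v2. It was at 27.15 to 34.7 CPM with PBS, 28.9 to 30.5 CPM with AAV9.empty, 32.2 to 33.5 CPM with AAV9.EGFP and 31.9 to 33.8 CPM with rAAV9-ST3GAL5.v1, and rAAV9-ST3GAL5.v2 overlapped with them all. The E332K livers were at 50.5, 45.5 and 56.1 CPM, above every other library. Tmed3 was lower with rAAV9-ST3GAL5.v2 than with the E332K vector (log2 fold change -0.65, 95% interval -0.92 to -0.37, adjusted p = 0.0261), although 5 of the 7 fits without 1 library lost the call (adjusted p from 0.00778 to 0.115). The call was also lost under 5 of 11 other settings. They were all 3 limma settings (adjusted p = 0.0587, 0.0576 and 0.12), Gm47283 as a covariate (adjusted p = 0.0826) and the replicate block (adjusted p = 0.299). It was higher with the E332K vector than with AAV9.empty by 0.76 (95% interval 0.56 to 0.95, adjusted p = 0.00022), and that call held in all 7 fits without 1 library and under the 11 other settings counted. At a 2-fold minimum, which is outside these 11, it was lost.

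Among the groups without ST3GAL5, no member was called. AAV9.empty against PBS called 0 of 7, with 0 at an unadjusted p under 0.05 and 0 by DESeq2 or limma, where 0.311% of all genes were called, 0.104% higher and 0.207% lower. AAV9.EGFP against AAV9.empty called 0 of 7, with 2 at an unadjusted p under 0.05 and 0 by DESeq2 or limma, where 0.442% of all genes were called, 0.387% higher and 0.0553% lower. Here too the shares of all genes are edgeR's at the adjusted p. Against AAV9.empty, rAAV9-ST3GAL5.v1 had higher Aldoa (log2 fold change 0.55, 95% interval 0.29 to 0.80, adjusted p = 0.00674) and Slc7a1, 2 of 7, where 13.8% of all genes were called higher and 28.1% in either direction. P4ha1 had 0.29 (adjusted p = 0.0771) and Gys1 0.31 (adjusted p = 0.116). The calls for Aldoa and Slc7a1 were lost when Gm47283 entered as a covariate (adjusted p = 0.0652 and 0.102), a fit in which the 3 rAAV9-ST3GAL5.v1 livers are set against the single AAV9.empty liver that lacks it. In that comparison, markers of cell types moved too. The summed hepatocyte markers were at 94071 to 112657 CPM with rAAV9-ST3GAL5.v1 against 132979 to 156632 CPM with AAV9.empty, with 9 of 10 lower and 1 higher. Neutrophil and myeloid precursor markers summed to 2601 to 2935 CPM against 1748 to 1895 CPM, with 9 of 10 higher, and cholangiocyte markers to 115 to 163 CPM against 40.9 to 61.9 CPM. Fewer hepatocytes and less RNA per hepatocyte cannot be told apart in whole liver, and the part of these markers in the rise of Aldoa and Slc7a1 was not tested. For rAAV9-ST3GAL5.v2 against AAV9.empty, 0 of 10 hepatocyte markers and 0 of 10 neutrophil markers were called by edgeR, while 4 of 10 Kupffer cell and monocyte markers and 2 of 8 sinusoidal endothelial markers were lower and 2 of 13 erythroid markers higher. Of all genes, 2.50% were called lower and 2.88% higher there. The summed Kupffer cell and monocyte markers were at 724 to 849 CPM with rAAV9-ST3GAL5.v2 against 954 to 1343 CPM with AAV9.empty. Their part in the level of P4ha1, which did not pass in that comparison, was not tested.

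A longer list of 21 other published miR-122 targets was counted beside the 7. In rAAV9-ST3GAL5.v2 against AAV9.empty 2 were higher and 1 lower, where 2.88% of all genes were called higher and 2.50% lower. There 9 of the 21 had an unadjusted p under 0.05, and the median log2 fold change was 0.01 beside 0.01 over all genes. Against AAV9.EGFP 0 were called by edgeR, where 0.330% of all genes were called, with 7 at an unadjusted p under 0.05. The share of all genes at an unadjusted p under 0.05 was not counted, so no enrichment is read from these counts. Ccng1 had the largest change of the list. It encodes cyclin G1, carries an 8mer and is both a miR-122 target of long standing and a gene that p53 induces. It was at 78.1 to 85.9 CPM with rAAV9-ST3GAL5.v2 against 19.2 to 21.5 CPM with AAV9.empty, a log2 fold change of 1.99 (95% interval 1.83 to 2.15, adjusted p = 2.15e-08). Ccng1 was also higher with the vectors without miR-122 sites, with log2 fold changes against AAV9.empty of 1.72 for AAV9.EGFP (adjusted p = 5.15e-08), 2.01 for rAAV9-ST3GAL5.v1 (adjusted p = 3.11e-05) and 2.46 for the E332K vector (adjusted p = 1.66e-08). Set directly against them, rAAV9-ST3GAL5.v2 had 0.27 against AAV9.EGFP (95% interval 0.08 to 0.46, adjusted p = 0.193), -0.03 against rAAV9-ST3GAL5.v1 (95% interval -0.28 to 0.21) and was lower than the E332K vector (-0.48, 95% interval -0.68 to -0.28, adjusted p = 0.0246).

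**Figure D4:**
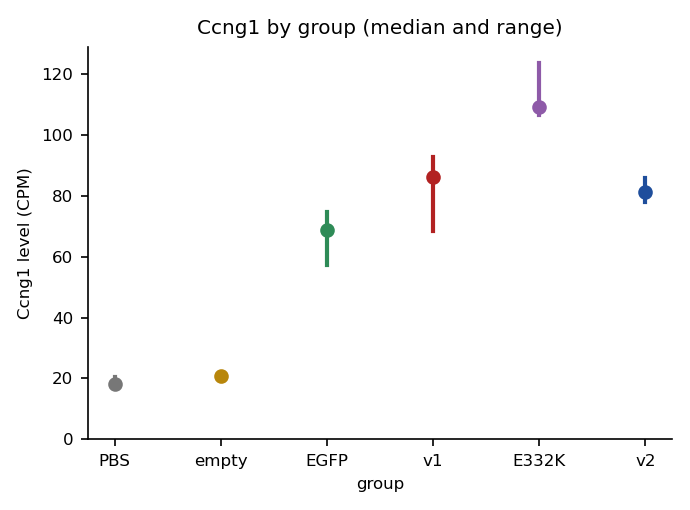
Ccng1 in CPM by group, with the median as a point and the lowest and highest liver as the ends of a line. The groups given a vector genome lay at 57.4 CPM or more and those given PBS or AAV9.empty at 21.5 CPM or less, whether or not the genome held miR-122 sites.

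Of the other members of that list called against AAV9.empty, Bckdk, the kinase that inhibits breakdown of branched-chain keto acids, was higher (0.35, adjusted p = 0.0313) and Adam17, a sheddase, was lower (-0.31, adjusted p = 0.0295). Hfe, a regulator of iron uptake, had -0.30 (adjusted p = 0.0806). Bckdk had a 7mer-m8 as its strongest site, while Adam17 and Hfe had no 8mer or 7mer match in any annotated 3′ UTR. In rAAV9-ST3GAL5.v1 against AAV9.empty 10 of the 21 were higher and 2 lower (median 0.27, beside 0.02 over all genes, of which 13.8% were called higher and 14.3% lower), and in rAAV9-ST3GAL5.v2 against rAAV9-ST3GAL5.v1 9 were lower and 2 higher (median -0.28, beside -0.01 over all genes, of which 12.1% were called lower and 11.3% higher). Pkm, the pyruvate kinase of muscle and fetal liver, which has an 8mer, was among them, with 0.76 in rAAV9-ST3GAL5.v1 against AAV9.empty (adjusted p = 0.00105) and -1.01 in rAAV9-ST3GAL5.v2 against rAAV9-ST3GAL5.v1 (adjusted p = 0.000781).

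The factors and enzymes around miR-122 were measured beside its targets. Of 8 liver transcription factors known to drive the miR-122 gene, edgeR called 0 in rAAV9-ST3GAL5.v2 against AAV9.empty, with 2 at an unadjusted p under 0.05, and Onecut1 and Cebpa had -0.65 and -0.31 (adjusted p = 0.0588 and 0.0591). In rAAV9-ST3GAL5.v1 against AAV9.empty 7 of the 8 were lower, where 14.3% of all genes were called lower, among them Onecut1 (-1.74, adjusted p = 0.00053), Cebpa (-0.83, adjusted p = 0.00985) and Hnf4a (-0.27, adjusted p = 0.0406). Of 14 genes that process microRNAs or silence with them, 0 were called in rAAV9-ST3GAL5.v2 against AAV9.empty, with 3 at an unadjusted p under 0.05. Tnrc6a, a scaffold of the silencing complex, had 0.33 (adjusted p = 0.0875), Ago1, an Argonaute, -0.18, and Xpo5, the exporter of microRNA precursors, -0.24. Of 21 genes of glycolysis and the hypoxia response, a group to which Aldoa belongs by function, Vegfa alone was called in rAAV9-ST3GAL5.v2 against AAV9.empty (0.54, adjusted p = 0.0422), where 5.38% of all genes were called. In that comparison 9 of the 21 had an unadjusted p under 0.05, a threshold at which the share of all genes was not counted. The median log2 fold change of the 21 was -0.14, beside 0.01 over all genes. In rAAV9-ST3GAL5.v1 against AAV9.empty 8 were higher, where 13.8% of all genes were called higher, among them Pfkfb3, a regulator of glycolysis (2.09, adjusted p = 0.00316).

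Gys1 and Slc7a1 each have a liver form, and those forms were the more abundant ones here. Over the 22 libraries, on the TPM scale, which corrects for transcript length, Gys2, the liver glycogen synthase, averaged 66.6 TPM against 2.83 TPM for Gys1. Slc7a2, the liver cationic amino acid transporter, averaged 15.4 TPM against 5.93 TPM for Slc7a1. Against AAV9.empty, Gys2 had a log2 fold change of -0.89 with rAAV9-ST3GAL5.v1 (adjusted p = 0.0516) and of -0.23 with rAAV9-ST3GAL5.v2 (95% interval -0.43 to -0.03, adjusted p = 0.166). Ndrg1, of the family of Ndrg3, was lower with rAAV9-ST3GAL5.v2 than with AAV9.empty (-0.54, adjusted p = 0.0442), as it was with rAAV9-ST3GAL5.v1 (-0.88, adjusted p = 0.00147) and the E332K vector (-0.69, adjusted p = 0.00574). In the E332K livers, Tmed2, a p24 family partner of Tmed3, rose with it against AAV9.empty (0.57, adjusted p = 0.00181), as did P4hb, the protein disulfide isomerase that pairs with P4ha1 (0.66, adjusted p = 0.0026), while P4ha1 fell.

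The same comparisons were summarised over all genes by their strongest seed match. In rAAV9-ST3GAL5.v2 against AAV9.empty, 432 tested genes with an 8mer had a median log2 fold change of 0.002 (quartiles -0.142 and 0.153), beside -0.001 for the 11091 genes with no site. Of the 432, 11 were higher (2.55%) and 12 lower (2.78%), beside 2.7% and 2.68% over all genes with an annotated 3′ UTR. The 794 genes with a 7mer-m8 had -0.023. Against PBS the medians were -0.016 for genes with an 8mer and -0.004 for those with no site, against AAV9.EGFP 0.000 and -0.004, and against rAAV9-ST3GAL5.v1-E332K 0.034 and -0.003. Against rAAV9-ST3GAL5.v1 the median was -0.087 for 436 genes with an 8mer and -0.003 for those with no site. Of those with an 8mer 7.8% were called higher and 14.2% lower, beside 11.6% and 12.9% over all genes with an annotated 3′ UTR. In rAAV9-ST3GAL5.v1 against AAV9.empty the medians were 0.085 for 440 genes with an 8mer and 0.013 for those with no site, and of those with an 8mer 17.3% were called higher and 11.1% lower, beside 14.5% and 15.2% over all genes with an annotated 3′ UTR. In rAAV9-ST3GAL5.v1-E332K against AAV9.empty the medians were -0.047 and -0.005. Genes are not independent replicates and many change together, so these medians describe the libraries. In the rAAV9-ST3GAL5.v2 livers taken one at a time, the median over genes with an 8mer had an SD of 0.0586.

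**Figure D5:**
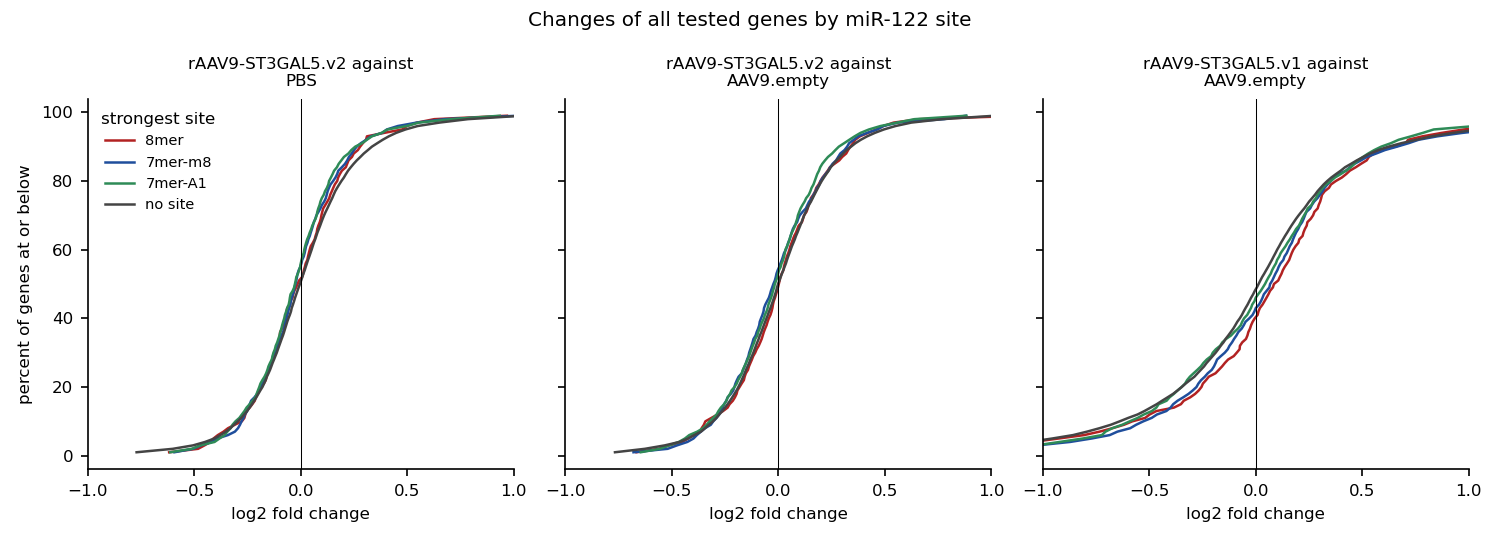
Cumulative share of tested genes by log2 fold change, for genes whose strongest miR-122 site is an 8mer, a 7mer-m8, a 7mer-A1 or none, in 3 comparisons. The curves lie close together for rAAV9-ST3GAL5.v2 against PBS and AAV9.empty. In the panel of rAAV9-ST3GAL5.v1 the 8mer curve lies to the right of that of genes with no site, with medians of 0.085 and 0.013.

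Over the 22 livers the 21 pairs of the 7 targets had Pearson correlations of log2(CPM + 1) from -0.575 (P4ha1 and Tmed3) to 0.685 (Aldoa and P4ha1), with a median of -0.095. The 6 pairs among Aldoa, Slc7a1, P4ha1 and Gys1, the genes with an 8mer, were all positive, from 0.293 (P4ha1 and Gys1) to 0.685, and Cd320 had negative values with each of these 4, from -0.540 (Gys1) to -0.280 (P4ha1). The livers share their treatment groups, so these values describe group differences as well as differences between livers. Aldoa was most like Pkm (r = 0.878) and Slc16a3 (r = 0.853) among 13517 genes with a mean of at least 1 CPM, Slc7a1 like Emilin2 (r = 0.881) and Dusp11 (r = 0.859), and Gys1 like Brpf1 and Lrrc8c (both r = 0.753). P4ha1 was most like Vps26a (r = 0.914) and Ctsc (r = 0.912), Tmed3 like Septin5 (r = 0.942) and Tbcb (r = 0.932), Ndrg3 like Tcf24 (r = 0.812) and Paics (r = 0.784), and Cd320 like Gm17494 (r = 0.749) and Usf1 (r = 0.703). Of these 14 genes, Pkm and Brpf1 had an 8mer and Dusp11 and Paics a 7mer-A1, and no 3′ UTR was found for Septin5 and Gm17494. Over all genes with an annotated 3′ UTR the shares were 3.33% and 6.26%.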

How the data were processed

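Liver RNA from 22 pups was selected with oligo(dT), depleted of rRNA and made into unstranded libraries. The submitters' processing notes name Trimmomatic, STAR, RSEM and mm10, with versions not given in the sources used here. The deposited tables hold RSEM expected counts and TPM per gene for each sample, and 5.69% of the expected counts were not whole. Expected counts were rounded and tested in edgeR 4.0.16 (R 4.3.3) with TMM scaling, filterByExpr and the quasi-likelihood test, for each pair of groups on those groups alone, and for rAAV9-ST3GAL5.v2 against the mean of the other 5 groups on all 22 libraries. Genes were called at an adjusted p of at most 0.05. TPM, as deposited by the authors, served to compare levels between genes and, as log2(TPM + 1) or log2(TPM + 0.1), for limma 3.58.1. The other alternatives were DESeq2 1.42.0, its size factors, other filters, one fit of all groups, a replicate block, covariates for erythroid markers and Gm47283, a 2-fold minimum and each library left out. The edgeR step was tested on simulated data. Strand was not recorded, so reads of overlapping antisense genes cannot be told apart. The members and lists were chosen with earlier results of these data known. All members are named in each comparison, with up to 4 genes of every other list that had the smallest p in rAAV9-ST3GAL5.v2 against AAV9.empty, isoforms and partners beside their member, and the 2 genes most like each member. Some genes that this rule names are not reported here.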

Additional observations from a re-analysis of the deposited data

Results flagged for a closer look

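In the 28 sets of 4 livers (7 genes in 4 groups), 2 held a liver far from the other livers of its group by Dixon's criterion, which chance gives in about 1 of 20 sets. Ndrg3 in AAV9.empty replicate 3 was at 16.0 CPM, below 18.7 to 19.2 CPM in the other livers of that group. P4ha1 in PBS replicate 2 was at 22.1 CPM, above 19.7 to 20.0 CPM in the other PBS livers.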

How the results depend on the processing

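Of 833 member values under the other settings, 754 kept their direction and side of the threshold, 41 turned direction, 22 lost a call and 16 gained one, and of 630 values with 1 library left out the numbers were 571, 38, 19 and 2. No value that turned direction was called in the main comparison.

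The count of members called in rAAV9-ST3GAL5.v2 against PBS was 1 with DESeq2 and with all groups in one fit, and against AAV9.empty it was 1 with these, with limma on log2(TPM + 1) and log2(TPM + 0.1) with a filter and with the erythroid covariate, in each case P4ha1. Against rAAV9-ST3GAL5.v1 it was 1 with the Gm47283 covariate, 0 at a 2-fold minimum and 3 with both filtered limma settings, which added Gys1. Against rAAV9-ST3GAL5.v1-E332K it was 0 with the 3 limma settings (Tmed3 adjusted p = 0.0587, 0.0576 and 0.12), with the Gm47283 covariate (0.0826) and at a 2-fold minimum. Against the mean of the other 5 groups it was 0 without a filter, with the Gm47283 covariate and at a 2-fold minimum, and 2 with limma on log2(TPM + 1) with a filter, which added Tmed3 (adjusted p = 0.0499). For rAAV9-ST3GAL5.v1 against AAV9.empty it was 0 with the Gm47283 covariate and at a 2-fold minimum and 3 with all groups in one fit and both filtered limma settings, which added P4ha1 (adjusted p = 0.0488, 0.0334 and 0.0344), and with unfiltered limma, which added Tmed3 (0.0481), and for rAAV9-ST3GAL5.v1-E332K against AAV9.empty it was 1 with unfiltered limma and 0 at a 2-fold minimum. The cause was not tested. With 1 library left out the count ran from 0 to 1 in rAAV9-ST3GAL5.v2 against AAV9.empty, against rAAV9-ST3GAL5.v1-E332K and against the mean of the other 5 groups, and from 2 to 3 against rAAV9-ST3GAL5.v1.

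Whether the replicate numbers pair the livers could not be settled, and the main fits leave the number out. No comparison had every same-number pair's deviations correlated above 0.1. The correlations ran from -0.362 (replicate 2, rAAV9-ST3GAL5.v2 and rAAV9-ST3GAL5.v1-E332K) to 0.506 (replicate 3, rAAV9-ST3GAL5.v2 and AAV9.EGFP). With the replicate block, 0 members were called against rAAV9-ST3GAL5.v1 (Aldoa adjusted p = 0.0616, P4ha1 0.0732), against rAAV9-ST3GAL5.v1-E332K (Tmed3 0.299) and against the mean of the other 5 groups (P4ha1 0.0771). For rAAV9-ST3GAL5.v2, all genes called fell from 422 to 191 against PBS and from 3486 to 1254 against rAAV9-ST3GAL5.v1. They also fell from 275 to 84 against rAAV9-ST3GAL5.v1-E332K and from 746 to 594 against the mean of the other 5 groups. They rose from 783 to 868 against AAV9.empty and from 48 to 67 against AAV9.EGFP.

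With DESeq2 the genes called over all genes were 888 against PBS, 1330 against AAV9.empty (783 with edgeR), 395 against AAV9.EGFP (48) and 597 against rAAV9-ST3GAL5.v1-E332K (275). With limma on log2(TPM + 1) and a filter, the median of all genes shifted by -0.105, to -0.0978, against AAV9.empty and by -0.168, to -0.173, against rAAV9-ST3GAL5.v1. The share of calls that were higher was then 21.1% against AAV9.empty (53.5% with edgeR), 20.4% against rAAV9-ST3GAL5.v1 (48.4%), 44.6% against PBS (62.1%), 22.2% against AAV9.EGFP (33.3%) and 17.4% against the mean of the other 5 groups (55.1%), 63% in rAAV9-ST3GAL5.v1 against AAV9.empty (49%) and 27.5% in rAAV9-ST3GAL5.v1-E332K against AAV9.empty (52.8%).

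In rAAV9-ST3GAL5.v2 against PBS, the turned values were Tmed3 -0.0080 and -0.0083 with limma, Tmed3 -0.0020 with the erythroid covariate and Aldoa 0.0143 with the erythroid covariate. In rAAV9-ST3GAL5.v2 against AAV9.empty, the turned values were Ndrg3 -0.0737 and -0.0823 with limma and Cd320 -0.0651 and -0.0700 with limma. In rAAV9-ST3GAL5.v2 against AAV9.EGFP, the turned values were Aldoa 0.0068 with one fit, Cd320 -0.2337 and -0.2532 with limma and Cd320 -0.0261 with the Gm47283 covariate. In rAAV9-ST3GAL5.v2 against rAAV9-ST3GAL5.v1, the turned values were Cd320 -0.1564 and -0.1682 with limma. In rAAV9-ST3GAL5.v2 against rAAV9-ST3GAL5.v1-E332K, the turned values were Slc7a1 0.0287 with the Gm47283 covariate. In AAV9.EGFP against AAV9.empty, the turned values were Gys1 -0.0001 with one fit, Gys1 -0.0177 and -0.0259 with limma, Gys1 -0.0023 with the erythroid covariate and Aldoa 0.0461 with the Gm47283 covariate. In rAAV9-ST3GAL5.v1 against AAV9.empty, the turned values were Cd320 0.0913 and 0.0982 with limma. In AAV9.empty against PBS, the turned values were P4ha1 0.0357 and 0.0403 with limma, P4ha1 0.0384 with the erythroid covariate, P4ha1 0.0075 with the Gm47283 covariate and Cd320 -0.0353 with the erythroid covariate. In rAAV9-ST3GAL5.v2 against mean of the other 5 groups, the turned values were Slc7a1 -0.0254 and -0.0287 with limma and Ndrg3 -0.0240 and -0.0263 with limma.

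With 1 library left out, the values that turned ranged as follows. In rAAV9-ST3GAL5.v2 against PBS, Aldoa from -0.1360 to 0.0537 and Tmed3 from -0.0159 to 0.1464. In rAAV9-ST3GAL5.v2 against AAV9.empty, Gys1 from -0.1936 to 0.0175, Ndrg3 from -0.0124 to 0.1333 and Aldoa from -0.1883 to 0.0110. In rAAV9-ST3GAL5.v2 against AAV9.EGFP, Aldoa from -0.0970 to 0.0923, Cd320 from -0.1338 to 0.1653, Gys1 from -0.1931 to 0.0037 and Tmed3 from -0.1199 to 0.0406. In rAAV9-ST3GAL5.v2 against rAAV9-ST3GAL5.v1, Tmed3 from -0.1489 to 0.0292. In rAAV9-ST3GAL5.v2 against rAAV9-ST3GAL5.v1-E332K, Aldoa from -0.0442 to 0.1457 and Slc7a1 from -0.1331 to 0.0042. In AAV9.EGFP against AAV9.empty, Gys1 from -0.0731 to 0.1026. In AAV9.empty against PBS, Tmed3 from -0.1043 to 0.0062, Cd320 from -0.0323 to 0.1384, P4ha1 from -0.0731 to 0.0209 and Aldoa from -0.0315 to 0.1257. In rAAV9-ST3GAL5.v2 against mean of the other 5 groups, Slc7a1 from -0.0298 to 0.1240.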
